A study of Caenorhabditis elegans with 2 samples.

Results

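Autosomal peaks in coding exons are regions of an unthresholded peak list for NHR-11, which includes background. In each, the summit, the base of highest signal, lies in protein-coding sequence and away from any gene start. A peak of the pooled ce11 list belonged to the set when its summit fell in a coding interval of a protein-coding gene on chromosomes I to V. It also had to lie outside every promoter window, which reached 1000 bp upstream and 500 bp downstream from each annotated protein-coding 5′ end. This placed 1359 peaks in the set, of 10635 autosomal peaks and 13299 pooled peaks in all, and each interval was 430 bp wide. The position rule used no signal value.

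The study was a ChIP-seq experiment, which sequences the DNA fragments that come down with a chosen protein, on whole L2 larvae of the nematode Caenorhabditis elegans. Both samples were of mixed sex and unknown age, from strain OP305, which carries the transgene wgIs305 with eGFP-tagged nhr-11 in an unc-119(ed3) III background. They are 2 biological replicates of 1 group, with fragments of 150 to 350 bp, and the antibody entry of the labels reads nhr-11. The labels do not give the promoter or the cells in which the tagged protein was made, and whole larvae mix all tissues. There was no second group, so no contrast was tested, and peaks of 1 list are not replicates of a condition. The intervals given below are 95% intervals that cover counting error only.

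NHR-11 is a nuclear hormone receptor, a family of zinc-finger transcription factors that is unusually large in nematodes. Such receptors bind short hexamer sites, commonly in promoters and enhancers. Coding exons are constrained by the protein they encode, are richer in G and C than the introns of this genome, and are transcribed with the rest of the gene. Peak lists kept as input for the irreproducible discovery rate (IDR) procedure, as here, are unthresholded and include background.

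The sequences at the strongest coding exon peaks show what lay under the summit. Each is read from ce11 and holds the summit base with 50 bases on each side, written 5′ to 3′ on the coding strand of the host gene from the RefSeq genome, with coding bases in capitals and intron bases in lower case. The first 3 belong to the peaks that also passed the IDR threshold, and the other 4 to the peaks next in signal.
hsp-1, chrIV:17279896-17279996, plus strand: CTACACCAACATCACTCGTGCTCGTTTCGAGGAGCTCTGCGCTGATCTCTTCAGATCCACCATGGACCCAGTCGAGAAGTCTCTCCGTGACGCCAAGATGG
act-5, chrIII:13604915-13605015, minus strand: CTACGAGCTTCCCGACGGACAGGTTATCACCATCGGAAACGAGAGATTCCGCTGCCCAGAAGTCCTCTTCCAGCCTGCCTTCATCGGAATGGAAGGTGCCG
F58G1.7, chrII:12944677-12944777, minus strand: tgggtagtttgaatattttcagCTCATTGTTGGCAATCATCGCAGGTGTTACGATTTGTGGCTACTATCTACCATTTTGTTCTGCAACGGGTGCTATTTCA
ZC21.8, chrIII:8519039-8519139, minus strand: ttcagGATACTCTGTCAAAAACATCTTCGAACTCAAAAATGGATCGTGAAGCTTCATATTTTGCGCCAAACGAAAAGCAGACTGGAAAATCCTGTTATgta
myrf-1, chrII:10500313-10500413, minus strand: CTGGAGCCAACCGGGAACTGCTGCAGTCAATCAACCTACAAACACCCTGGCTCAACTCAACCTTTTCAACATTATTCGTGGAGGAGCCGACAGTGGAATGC
W09D6.5, chrIII:11090270-11090370, plus strand: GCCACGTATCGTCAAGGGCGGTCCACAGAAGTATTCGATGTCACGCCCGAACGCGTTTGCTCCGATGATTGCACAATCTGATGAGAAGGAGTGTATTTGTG
hsp-110, chrIII:8445956-8446056, minus strand: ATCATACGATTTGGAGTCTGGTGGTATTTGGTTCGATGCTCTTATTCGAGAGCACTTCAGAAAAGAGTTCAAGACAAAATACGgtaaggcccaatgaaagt

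The windows of hsp-1, act-5, myrf-1 and W09D6.5 were coding throughout, while those of F58G1.7, ZC21.8 and hsp-110 reached an exon edge. The G+C content of the 7 windows ran from 37.6% in ZC21.8 to 57.4% in act-5. The hexamer GAGAGA, read on either strand, was present in the windows of hsp-1 and act-5, and the receptor hexamer AGTTCA in that of hsp-110. None of the 6 hexamers searched, listed further on, was present in the windows of F58G1.7, ZC21.8, myrf-1 and W09D6.5.

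Coding exons held fewer and weaker peaks than the other parts of the autosomes. Coding bases outside the promoter windows, called open coding bases from here on, made up 16.9% of the autosomes and held 12.8% of the peaks (95% Wilson interval 12.2 to 13.4). The density was 97.6 peaks per Mb. It was 112 in introns, 116 between genes, 159 in promoter windows and 244 in exons of untranslated regions (UTRs). Coding exons thus had the lowest density of the 5 places.

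The signal value, the peak caller's own measure of strength, had a median of 10.03 in coding exon peaks (95% order-statistic interval 9.86 to 10.2). The lowest was 8.36, the quartiles were 9.02 and 11.5, and the highest was 32.96. Medians elsewhere were 10.4 in introns, 10.6 between genes, 10.8 in promoter windows and 11.4 in UTR exons, so the coding exon median was the lowest of the 5 places, and its interval lay below that of introns (10.3 to 10.6). The strong tail was also thin. A signal over 20 was reached by 10 coding exon peaks (0.736%), against 94 (4.14%) in introns, 108 (4.82%) between genes, 315 (7.31%) in promoter windows and 31 (6.72%) in UTR exons. The highest signals of those places were 61.4, 65.3, 203 and 58.0.

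Below 20, the coding exon peaks split nearly evenly, with 675 (49.7%) at a signal of 10 or less and 674 between 10 and 20. Of the 10 over 20, 9 had their summit in an inner exon, 9 were overlapped by a peak in both replicate lists, and 3 lay near a short RNA gene.

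The IDR-thresholded list of 280 peaks held 3 of the 1359 coding exon peaks (0.221%), against 1.71% of all autosomal peaks. These were the peaks in hsp-1, act-5 and F58G1.7, at ranks 154, 210 and 261 of the pooled list by signal. The strongest coding exon peak left out of that list, in ZC21.8, ranked 348.

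**Figure D1:**
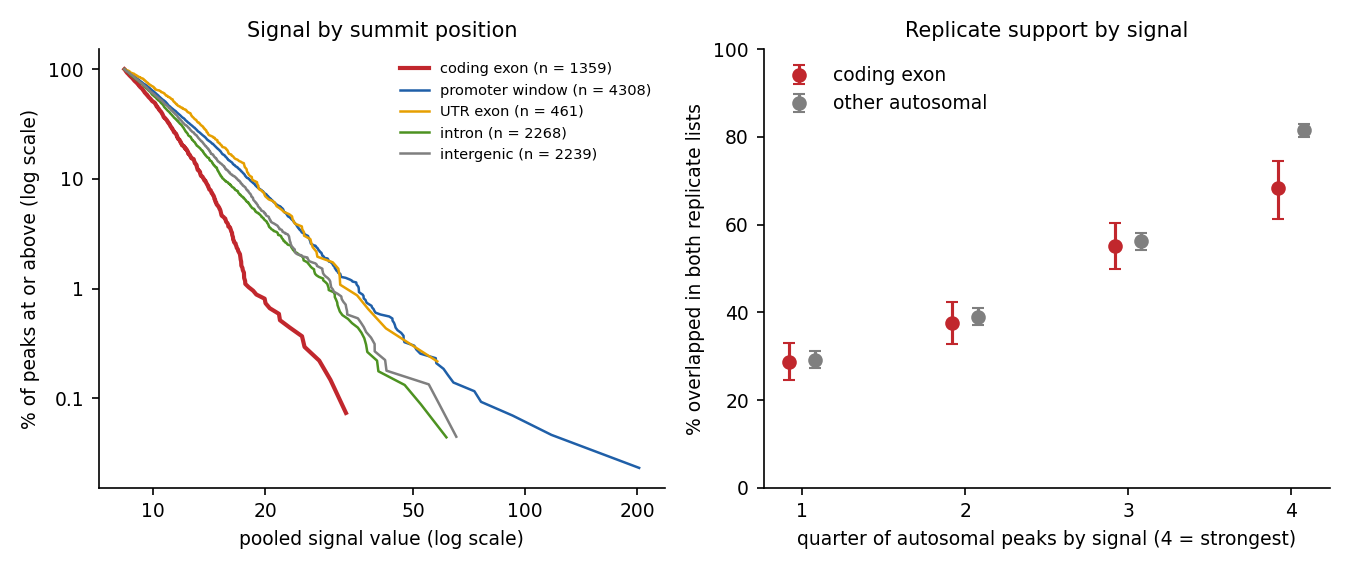
Left, share of peaks at or above each pooled signal value (both axes logarithmic) for the 5 places of a summit on the autosomes; the curve of the 1359 coding exon peaks falls fastest and ends at 32.96. Right, share of peaks overlapped by a peak of both replicate lists in each signal quartile of the autosomal peaks, with 95% Wilson intervals; coding exon peaks and other peaks lie together in the lower quartiles and apart in the strongest, at 68.3% and 81.5%.

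The plot of signal by summit position shows the coding exon curve below those of the other 4 places, which are themselves spread: 4.14% of intron peaks and 7.31% of promoter window peaks had a signal over 20. Its second panel leads to the question of how far the replicates shared these peaks.

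Replicate support was lower in coding exons than elsewhere. A peak of both replicate lists overlapped 589 coding exon peaks (43.3%, interval 40.7 to 45.99) by at least 1 bp, against 51.1% of all autosomal peaks. A further 450 were overlapped in replicate 1 alone, 281 in replicate 2 alone and 39 in neither. Support in both lists was 49.03% in introns, 51.05% between genes, 53.8% in promoter windows and 59.9% in UTR exons. The overlap of neighbouring intervals counts here, since the 589 peaks corresponded to 555 peaks of replicate 1 and 554 of replicate 2.

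The replicate lists were long, with 25831 and 27015 peaks, and so covered much sequence. Peaks of replicate 1 covered 8.52% of open coding bases and those of replicate 2 covered 10.97%, while they overlapped 76.5% and 64.02% of coding exon peaks. The coverage counts single bases, while the overlap needs only 1 base of a 430 bp interval, so they are unlike measures. The pooled list was called on both replicates together, so this overlap is in part built in.

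Support rose with signal in coding exons as in other places. From the weakest to the strongest signal quartile of autosomal peaks, the share in both lists was 28.7%, 37.5%, 55.2% and 68.3% in coding exons, and 29.2%, 39.01%, 56.2% and 81.5% in the other peaks. The shares lay within each other's intervals in the lower 3 quartiles. In the strongest quartile, the coding exon interval of 61.3 to 74.5% (n = 189) lay below that of the other peaks, 79.9 to 82.98% (n = 2470). Signals in that quartile ran to 32.96 in coding exons and to 203 elsewhere. Coding exon peaks were also unevenly spread over the quartiles, with 32.3% in the weakest and 13.9% in the strongest.

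Where both replicates had a peak, the replicates did not order coding exon peaks alike. Across the 589 peaks, Spearman's rho between the replicate signals was -0.0047 and Pearson's r of the log2 signals was 0.06. Across the 4850 other autosomal peaks with support in both lists, they were 0.21 and 0.33. Pooled signals ran to 32.96 in coding exon peaks and to 203 in the other autosomal peaks. The correlations were not compared over a like range of signal, and the part of that range in their difference was not tested. Both correlations are over peaks that share their 2 libraries and were selected by the pooled list, so they describe these lists and carry no test.

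Coding exon peaks also ranked low within each replicate list. Rank 1 is the strongest peak of a list, and the median rank of the overlapping peak was 7923 in replicate 1 and 8761.5 in replicate 2. A rank of 5000 or better in both lists was held by 47 coding exon peaks (3.46%), against 10.1% of all autosomal peaks. Taken alone, 344 had such a rank in replicate 1 and 270 in replicate 2. A rank of 1000 or better in both was held by 4 (0.294%), against 2.49%. Those 4 peaks were 2 in hsp-1, which share their replicate peaks, and 1 each in F58G1.7 and F53F1.6.

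**Figure D2:**
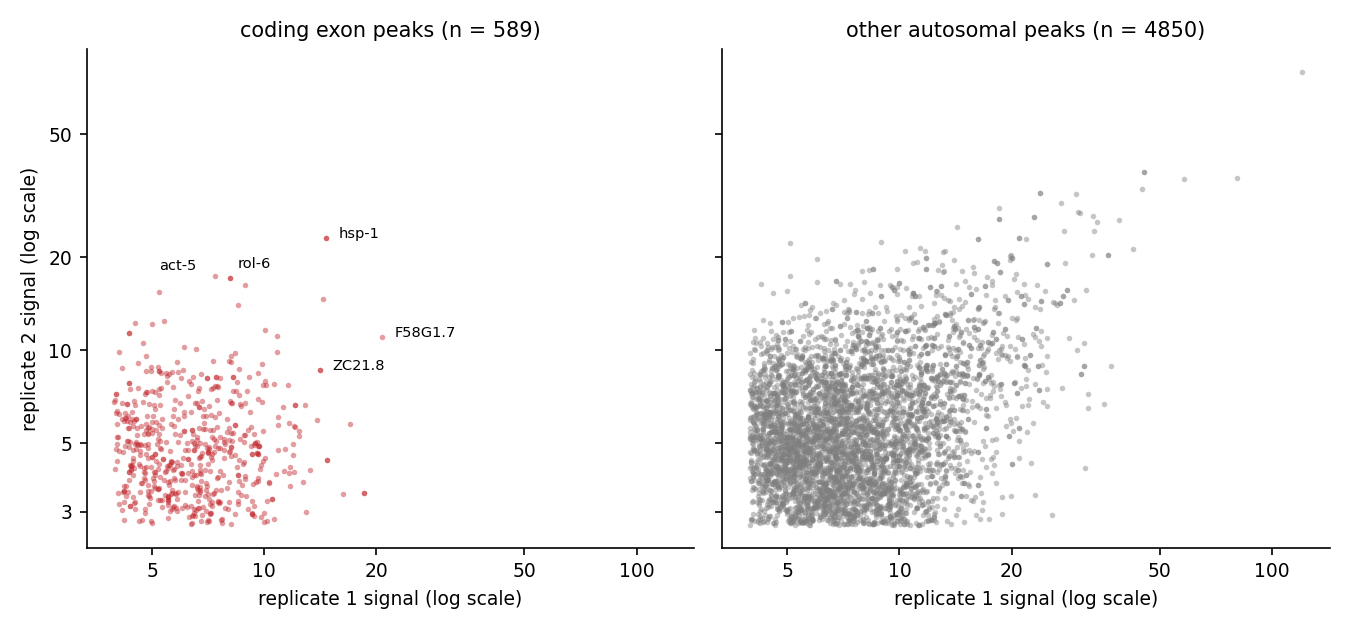
Replicate 2 signal against replicate 1 signal (both axes logarithmic) for the 589 coding exon peaks and the 4850 other autosomal peaks overlapped in both replicate lists; each point is 1 pooled peak. The other peaks extend along the diagonal to strong signals in both replicates, and the coding exon peaks stay in a cloud from which hsp-1 and F58G1.7 stand out.

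The plot of replicate signals shows few coding exon peaks with a high value in both replicates. The strongest of them are described next by host gene.

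The hsp-1 gene encodes a constitutive cytosolic chaperone of the HSP70 family. Its stronger peak lay at chrIV:17279731-17280160 in exon 2 of 4 coding exons, with a signal of 32.96 in the pooled list, 14.7 in replicate 1 (rank 539) and 23.1 in replicate 2 (rank 53). Both replicates placed it high, replicate 2 more so. A snoRNA gene, F26D10.24, lay 100 bp from the summit within hsp-1, and the part of that gene in the signal was not tested. A second, weaker peak in exon 3, with a signal of 8.47, overlapped the first and rested on the same replicate peaks. The promoter window of hsp-1 held a stronger peak, with a signal of 43.1.

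The act-5 gene encodes the actin of intestinal microvilli. Its peak, at chrIII:13604750-13605179 in exon 2 of 3, had a pooled signal of 29.9, with 7.39 in replicate 1 (rank 6059) and 17.4 in replicate 2 (rank 105). Replicate 2 thus ranked it among its strongest peaks and replicate 1 did not. Actin genes resemble each other closely, but no 30-base stretch of the interval occurred elsewhere in the genome.

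F58G1.7 held the third thresholded peak, at chrII:12944512-12944941 in exon 6 of 7. Its signal was 27.9 in the pooled list, 20.8 in replicate 1 (rank 157) and 11.04 in replicate 2 (rank 508). Both replicates ranked it high. The annotated snRNA gene sup-6 lay 76 bp from the summit, the interval overlapped a stronger pooled peak, and 17.7% of its 30-base stretches occurred elsewhere in the genome. The part of these features in the signal was not tested.

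The next peaks were shared to differing degrees. ZC21.8 had a pooled signal of 25.5, with 14.1 in replicate 1 (rank 626) and 8.66 in replicate 2 (rank 1365). The peak in myrf-1, whose product is the worm counterpart of the myelin regulatory factor, a membrane-released transcription factor, had 25.1, with 10.8 (rank 1646) and 9.86 (rank 800). Both of these were supported at moderate rank in each replicate. W09D6.5 had 23.3, with 10.7 (rank 1721) and 7.80 (rank 2065), and the annotated snRNA gene sls-2.14 lay 92 bp from its summit. For hsp-110, which encodes a nucleotide exchange factor of HSP70 chaperones, the values were 21.9, 11.3 (rank 1401) and 6.54 (rank 3901). For unc-89, which encodes the giant obscurin-like protein of the muscle M-line, they were 21.8, 12.9 (rank 849) and 6.63 (rank 3722). In these last 2 genes replicate 1 ranked the peak higher than replicate 2.

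The remaining strong peaks included some seen in 1 replicate. For gdh-1, which encodes mitochondrial glutamate dehydrogenase, the pooled signal of 20.6 came with 17.7 in replicate 1 (rank 287) and no overlapping peak in replicate 2. The peak in crn-3, which encodes a nuclease of the RNA exosome, had 18.9, with 15.1 in replicate 1 (rank 475) and none in replicate 2. A strong pooled signal therefore did not require a peak in both lists. In vdac-1, which encodes the voltage-dependent anion channel of the outer mitochondrial membrane, the values were 20.03, 9.61 (rank 2521) and 8.45 (rank 1499). In lit-1, which encodes a Nemo-like kinase of the Wnt pathway, they were 19.9, 12.4 (rank 980) and 5.49 (rank 6712).

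The rank in the replicates and in the pooled list could differ. F53F1.6 had a pooled signal of 8.39, near the lowest in the set, beside 14.4 in replicate 1 (rank 575) and 14.6 in replicate 2 (rank 181). Its interval overlapped a stronger pooled peak, and the replicate values are those of whichever replicate peak overlapped it most strongly. ZC190.5, which ranked well in the pooled list too, had 17.2, with 10.8 (rank 1613) and 11.1 (rank 496), and also overlapped a stronger pooled peak. In all, 98 coding exon peaks (7.21%) overlapped a stronger pooled peak. The share was 7.14% in introns, 8.22% between genes, 8.31% in promoter windows and 10.8% in UTR exons.

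The host genes numbered 1199, or 8.37% of the 14321 autosomal genes with open coding bases, and no peak had more than 1 host. Of these genes, 1068 held 1 peak, 111 held 2, 15 held 3, 2 held 4, 2 held 5 and 1 held 6. The 131 genes with more than 1 peak held 291 peaks between them.

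Longer genes were hosts more often, without a steady change in density. Among genes with up to 500 open coding bases, 3.03% were hosts, and among those with over 8000, 59.3% were. Over the 6 length classes the density ran from 86.1 to 119 peaks per Mb in no steady order. The genes with the most peaks were large ones. The gene lrp-1, which encodes a megalin-like receptor needed for molting, held 6 peaks in 14168 open coding bases, 2 of them overlapping and resting on the same replicate peaks. Twitchin, the giant muscle kinase encoded by unc-22, held 5 peaks in 20893, and unc-89 held 5 in 23701. All of these genes lay above the mean density over all open coding bases, and they were picked for having the most peaks. The strongest signal among the 5 unc-22 peaks was 9.21, and 1 of them was in both replicate lists, against 4 of the 5 in unc-89.

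Other genes with several peaks were mlt-11, which encodes a protease-inhibitor-like protein of the molt, with 4 peaks of signal 9.17 to 14.1, and mua-3, which encodes a transmembrane protein that anchors the epidermis to the cuticle, with 4 of 9.25 to 11.2. The cadherin gene cdh-12 held 3 peaks of 9.68 to 15.2, all in both replicate lists. In oac-46, a member of an acyltransferase-like family, 3 peaks of 8.53 to 14.3 lay in 1707 open coding bases. Their intervals overlapped in a chain and rested on a single replicate 2 peak (signal 7.85, rank 2020), so they form 1 stretch. The 3 peaks of myrf-1 lay in 2768 open coding bases and had signals of 25.1, 17.5 and 15.3. Of these 3, the first was in both replicate lists and the others were in replicate 1 alone.

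**Figure D3:**
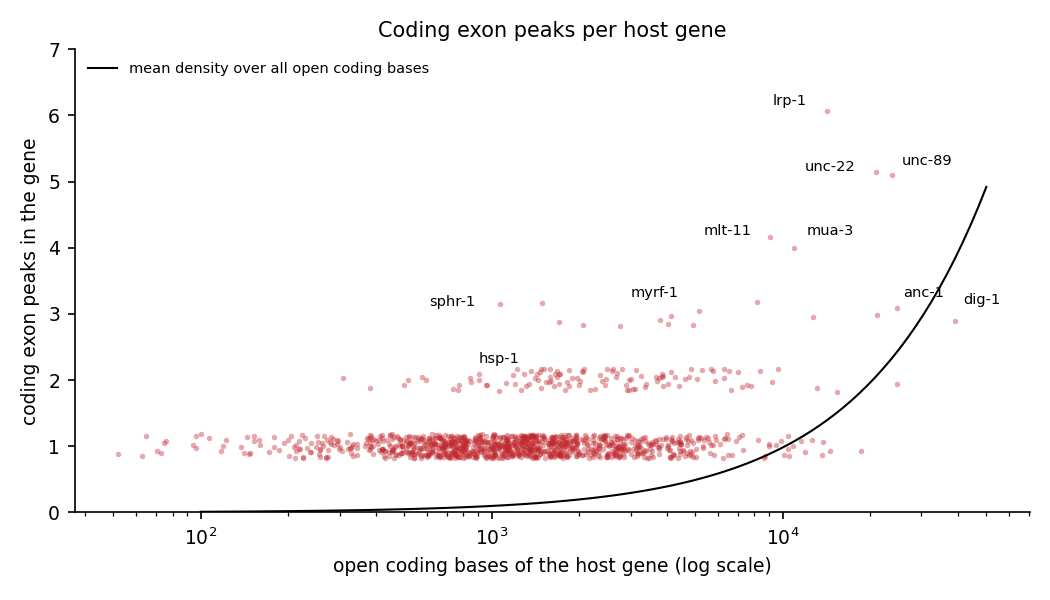
Coding exon peaks per host gene against the gene's open coding bases (logarithmic axis), 1 point per host gene, with points shifted slightly up or down so that they do not hide each other. The line is the mean density over all open coding bases; lrp-1 with 6 peaks, and unc-22 and unc-89 with 5, lie above it, and dig-1 with 3 lies near it.

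The plot of peaks per host gene shows that the giant genes dig-1 and anc-1, with 3 peaks each, lay close to the mean density, while short genes with 3 peaks, such as sphr-1 with 1069 open coding bases, lay well above it. Only genes with at least 1 peak are drawn, so a short gene in the plot is above the line by construction.

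Host genes also had promoter peaks more often than other genes. A pooled peak lay in the gene's own promoter window in 410 of the 1199 hosts (34.2%, interval 31.6 to 36.9), against 24.3% of all genes with open coding bases and 23.4% of those that were not hosts. Of the 472 coding exon peaks in such hosts, 146 (30.9%) had a higher signal than the strongest peak in the promoter window, and the others did not. Gene length and promoter peaks were not examined together.

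The 16 gene lists differed in how often their genes were hosts. Over all genes with open coding bases, 8.37% were hosts, the density was 98.2 peaks per Mb and 43.3% of peaks were in both replicate lists. Among chaperones, 9 of 45 genes were hosts, with 14 peaks at a density of 337 per Mb of open coding bases, and 11 of the 14 (78.6%) were in both replicate lists. The list's median signal was 11.1, against 10.03 over all coding exon peaks. Without peaks that overlap a stronger pooled peak, 10 remained, at 241 per Mb and with 7 in both lists. Without those near a short RNA gene, 12 remained, at 289 per Mb.

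The chaperone hosts covered several compartments. Besides hsp-1 and hsp-110, peaks lay in hsp-90, the cytosolic HSP90, with signals of 12.6 and 10.4, and in hsp-4, the endoplasmic reticulum HSP70 also called BiP, with 11.9 and 9.14. In hsp-6, the mitochondrial HSP70, the signals were 11.1 and 8.71. In hsp-75, which encodes a mitochondrial HSP90-type chaperone, the signal was 8.73 and the peak was in replicate 2 alone. The J-domain genes dnj-24 and dnj-5 held peaks of 13.9 and 11.04, and cct-4, which encodes a subunit of the cytosolic chaperonin, held one of 11.1. A pair of peaks in hsp-4 rested on the same replicate peaks, as did the pair in hsp-6.

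Of 137 collagen genes 11 were hosts (8.03%, against 8.37% of all genes), with 14 peaks at 163 per Mb, against 98.2. Of these 14, 9 (64.3%) were in both lists, against 43.3% of all coding exon peaks. The cuticle collagen gene dpy-4 had a pooled signal of 15.9, with 8.89 in replicate 1 (rank 3280) and 16.3 in replicate 2 (rank 127). In rol-6, another cuticle collagen gene, these were 13.7, 8.07 (rank 4536) and 17.1 (rank 109). As in act-5, replicate 2 ranked its overlapping peak far higher than replicate 1 did in both genes. The dpy-4 interval overlapped a stronger pooled peak, and its replicate values are those of whichever replicate peak overlapped it most strongly. Of 16 actin and tubulin genes 2 were hosts, with 3 peaks: 1 in act-5 and 2 in mec-12, the alpha-tubulin of touch receptor neurons, with signals of 11.4 and 8.77. Of 48 giant structural and matrix genes 23 were hosts (47.9%), with 53 peaks at 122 per Mb and a median signal of 9.32. Among all genes with over 4000 and up to 8000 open coding bases 40.9% were hosts, and among those with more, 59.3%.

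Translation factors and tRNA synthetases had 8 hosts of 60 (13.3%, against 8.37% of all genes) and 10 peaks at 149 per Mb, against 98.2. Elongation factor genes led that list, with signals of 13.1 for eef-2 and 11.6 for eef-1B.2, both in both replicate lists. Ribosomal protein genes, with 5.88 kb of open coding bases in all, had 1 host of 28 (3.57%), rps-11, with a signal of 8.69. That 1 peak, supported in replicate 1 alone, gave a density of 170 per Mb, above the 98.2 over all genes. Histone genes had no host among the 8 with open coding bases (2.16 kb in all), and the 1 vitellogenin gene (4.54 kb) had none. Counts over so few bases say little about these lists.

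Large gene families lay under the shares over all genes, 8.37% hosts and 98.2 peaks per Mb. Chemoreceptor genes had 40 hosts of 1277 (3.13%) and 54.8 peaks per Mb. F-box and MATH-BATH genes had 10 of 352 (2.84%) and 46.9, and C-type lectins had 8 of 221 (3.62%) and 51.2. Among all genes with up to 500 open coding bases 3.03% were hosts, and 6.44% of those with over 500 and up to 1000. In these length classes the density was 119 and 92.6 peaks per Mb, above that of each of these families. The lists were not matched by gene length. The strongest peaks were those in srsx-18 and srw-16 among chemoreceptors, with signals of 15.6 and 15.2. For fbxa-211 and fbxa-4 they were 15.2 and 12.6, and for clec-41 and clec-243 they were 11.9 and 10.2.

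Regulators and ion channels lay nearer the density over all genes, 98.2 per Mb. Nuclear hormone receptor genes had 16 hosts of 243 (6.58%, against 8.37% of all genes) and 17 peaks at 89.03 per Mb, led by nhr-43 with a signal of 16.7 and nhr-140 with 15.7. Replicate 1 gave the nhr-43 peak rank 16985 and replicate 2 gave it rank 6977, while the nhr-140 peak had support in replicate 1 alone. Homeobox genes had 4 hosts of 62 (6.45%), led by ceh-91 with 12.6 and zag-1, the ZEB-type zinc-finger homeobox gene, with 11.2. The ceh-91 peak was in both lists and the zag-1 peak in replicate 1 alone. Ion channels had 24 hosts of 168 (14.3%) and 104 peaks per Mb, led by the TRPM-type channel gene gtl-1 with 15.1 and by egl-19, the L-type calcium channel gene, with 13.4. The gtl-1 peak had support in replicate 1 alone, and the egl-19 peak was in both lists.

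ABC transporters had 7 hosts of 39 (17.9%, against 8.37% of all genes), but their density of 76.0 peaks per Mb lay below the 98.2 over all genes. Of their 7 peaks, 2 were in both replicate lists. The list was led by wht-5 with 12.4 and by ced-7, which acts in the engulfment of dying cells, with 11.5. The ced-7 peak had support in replicate 1 alone. Motor genes had 5 hosts of 28 (17.9%) and 62.9 peaks per Mb, led by dyci-1, the dynein intermediate chain gene, with 15.5 and the dynein heavy chain gene dhc-3 with 11.6. Replicate 1 gave the dyci-1 peak rank 19366 and replicate 2 gave it rank 16670, while the dhc-3 peak had support in replicate 2 alone. These lists were described by counts alone, and nothing is particular to any of them on that ground.

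Within their genes, coding exon peaks followed the open coding bases, with a higher density towards the end. First coding exons held 10 peaks (0.736% of peaks, against 0.863% of open coding bases) and inner exons 1099 (80.9% against 83.4%). Last exons held 249 (18.3%, interval 16.4 to 20.5, against 15.4%), and single-exon genes held 1. The density was 116 peaks per Mb in last exons and 95.1 in inner exons. In replicate 1's own list the last-exon share was 16.6%, with an interval of 14.8 to 18.7% that includes the share of open coding bases, and in replicate 2's it was 18.97% (17.1 to 20.995%). First exons are scarce here because the promoter window removes most of them. Median signals were 9.93 in inner and 10.2 in last exons, and support in both replicate lists was 42.9% and 44.98%.

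Position along the coding sequence gave the same picture. The final 10% of the coding sequence held 197 summits (14.5%, interval 12.7 to 16.5) and 10.8% of open coding bases. In each replicate's own list, cut to as many of its strongest peaks as the pooled list holds, the shares were 13.2% (11.5 to 15.1) in replicate 1 and 12.97% (11.4 to 14.7) in replicate 2. The interval lay above the share of bases in all 3 lists. Counted from the end of the coding sequence, the last 100 bases held 150 peaks per Mb, against 84.96 to 105 in the stretches farther upstream. The replicate lists had 143 and 147 there. In replicate 2 the next 100 bases were also dense, at 130 per Mb. Exons of UTRs, many of which follow directly, had 244 peaks per Mb, and their part in this density was not tested.

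**Figure D4:**
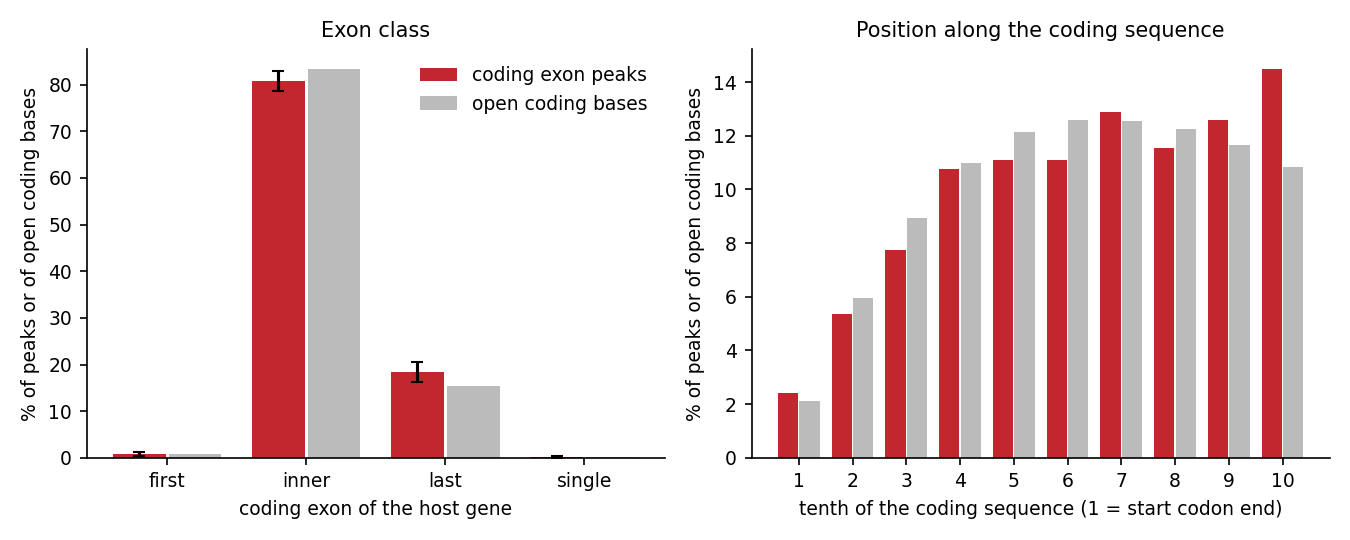
Left, share of the 1359 coding exon peaks and of open coding bases in first, inner, last and single coding exons, with 95% Wilson intervals on the peaks. Right, the same shares along the coding sequence in 10 equal parts from the start codon; the last part holds 14.5% of peaks and 10.8% of bases.

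The plot of exon class and position shows peaks and bases rising together over the first 4 parts of the coding sequence, where promoter windows leave few open bases. The last part is where peaks exceed bases most.

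The exons themselves were mostly shorter than the peaks. The median length of the exon under the summit was 287 bp, from 12 to 14975 bp, and 889 (65.4%) were shorter than the 430 bp interval. Coding sequence filled a median of 72.3% of the interval, and 206 intervals (15.2%) were coding throughout. The summit lay a median of 64 bp from the nearest exon edge, and 570 summits (41.9%) were within 50 bp of one. The placement of those peaks in a coding exon thus rests on a short distance. The nearest protein-coding 5′ end was at a median of 1546 bp. Density ran from 79.4 peaks per Mb in exons over 1600 bp to 119 in those of 801 to 1600 bp, with the shorter classes between.

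All autosomes contributed. Per Mb of open coding bases, chromosome III held the most peaks (113, from 281 peaks) and chromosome V the fewest (85.7, from 299). The values were 92.7 on I, 94.9 on II and 107 on IV. Median signals by chromosome lay between 9.77 and 10.2.

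The G+C content at the summits exceeded that of their surroundings, but differed little from that of other open coding sequence. The median G+C of the window of 50 bp on each side of the summit was 41.6%, against 37.1% in windows centred 300 bp to either side. The median difference was 3.96 percentage points (interval 3.47 to 4.46), and the summit was the richer in 933 peaks (68.7%). The same difference was 0.99 points in promoter windows, 1.49 between genes, -0.99 in introns and -2.97 in UTR exons. Summit windows in coding exons thus differed from their flanks more than those of any other place in the upward direction.

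The flanks of a coding exon peak often lie in introns, so the comparison within coding sequence is the closer one. Windows tiled over all open coding bases had a median G+C of 40.6%, with quartiles of 36.6 and 45.5% against 36.6 and 46.5% at the summits. G+C of 50% or more occurred in 13.02% of summit windows and 10.4% of open coding windows. For the 535 peaks in exons of at least 301 bp, the summit window exceeded the rest of its own exon by a median of 0.33 points (interval -0.21 to 0.76), and was the richer in 283 and the poorer in 252. Within exons, no difference was therefore detectable at this number of peaks.

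**Figure D5:**
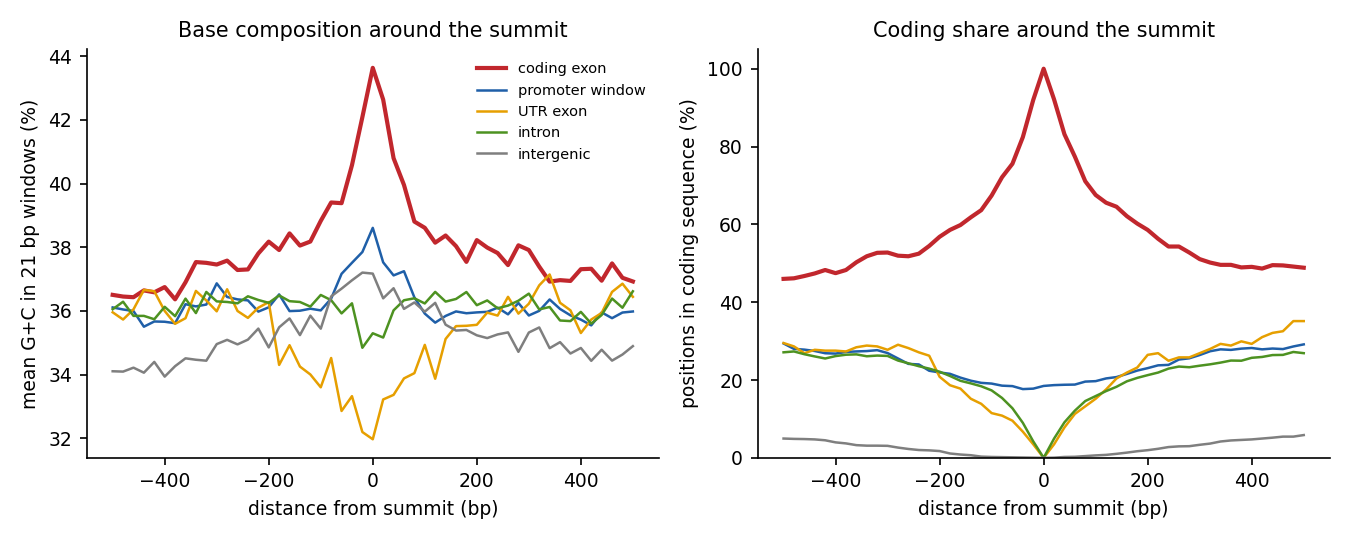
Left, mean G+C in 21 bp windows by distance from the summit for the 5 places; the coding exon line rises to 43.6% at the summit and the UTR exon line falls to 31.97%. Right, share of positions in coding sequence by distance from the summit; in coding exon peaks it falls from 100% at the summit, where the rule fixes it, to 46 to 49% at 500 bp.

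The plot of G+C around the summit shows a narrow rise in coding exon peaks, and its second panel shows the coding share narrowing over the same distance. On the coding strand, summit windows held 30.7% A, 20.5% C, 21.4% G and 27.3% T, against 30.5%, 20.8%, 21.9% and 26.7% in open coding exons. CG dinucleotides occurred 3.93 times per 100 bases at summits and 4.22 times in open coding exons. The shares of C and of G were thus slightly lower at summits, whereas the median G+C of windows was higher, at 41.6% against 40.6%. Many summit windows also reach past an exon edge, since 41.9% of summits lay within 50 bp of one. Base shares at summits therefore include intron bases and may not compare like sequence.

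The 6 hexamers were searched on both strands of the same windows. For the nuclear receptor family they were AGGTCA, then the variant AAGTCA, and further the variant AGTTCA. The others were the site of GATA factors, written GATAAG, then the simple repeat GAGAGA, and the E-box known as CACGTG. The first, AGGTCA, occurred in 40 coding exon windows (2.94%, interval 2.17 to 3.98), against 2.17% of the flanks, 2.04% of open coding windows and 2.93% of other autosomal peaks. AAGTCA occurred in 3.97% (3.06 to 5.15), against 5.04% of flanks and 4.998% of open coding windows. AGTTCA occurred in 6.55% (5.35 to 7.99), against 7.40% and 7.47%. The intervals of AAGTCA and AGTTCA include the shares of flanks and of open coding windows, and that of AGGTCA lies above the share of open coding windows and includes those of flanks and of other autosomal peaks.

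GATAAG occurred in 4.86% (3.84 to 6.13) of coding exon windows, against 3.79% of flanks and 4.30% of open coding windows. CACGTG occurred in 2.21% (1.55 to 3.13), against 1.69% and 2.70%. GAGAGA occurred in 6.55% (5.35 to 7.99), against 4.86% of flanks, 5.25% of open coding windows and 10.3% of the other autosomal peaks. The GAGAGA interval lies above the shares of flanks and of open coding windows, and below that of the other peaks. That of GATAAG lies above the share of flanks and includes that of open coding windows, and that of CACGTG includes both. The intervals of all 6 hexamers leave out the counting error of the shares they are set beside, and no difference was tested. A match is a description of these letters and not a binding site.

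Short RNA genes lay within 500 bp of the summit of 30 coding exon peaks (2.21%). The share was 2.17% in UTR exons, 3.78% in promoter windows, 4.47% between genes and 5.11% in introns. In the 30 coding exon peaks, the nearby genes were tRNA genes for 14, snoRNA genes for 11 and snRNA genes for 5. No coding exon peak lay near a miRNA or rRNA gene. The median signal of the 30 was 10.96 (interval 9.87 to 13.4), against 9.995 for the other 1329, and 15 of the 30 were in both replicate lists. They included 2 of the 3 thresholded peaks, those in hsp-1 and F58G1.7. In nol-56, which encodes a core protein of snoRNA particles, 2 peaks of signal 17.7 and 9.74 shared their replicate peaks (rank 531 in replicate 1 and 11908 in replicate 2), with the snoRNA gene K07C5.10 at 38 and 50 bp. The part of short RNA genes in these signals was not tested.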

How the data were processed

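ChIP-seq peak lists of 2 replicates were used. Per the notes deposited beside them, the authors made the peak calls, background included, for each replicate and for both pooled, each against a control, and thresholded them by IDR. The control library was not analysed here, and no source used here names the aligner, the peak caller or a version. The signal value in the deposited lists is the peak caller's own, with a scaling that no source states, so it served for ranks and descriptions inside 1 list. Depth per sample is unknown.

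Summits, counted from 1 on ce11, were placed with the Ensembl 115 annotation of the same build; lists on ce10 were not used. Exon class came from the transcript with the longest coding sequence. Placement and overlap were tested on simulated positions. Python 3.11.15, NumPy 2.4.6, pandas 2.3.3, SciPy 1.17.1 and matplotlib 3.10.9 were used.

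Genes were named if they hosted a thresholded peak, 1 of the 12 highest signals, 1 of the 8 best ranks by the worse replicate, 3 or more peaks (the 8 genes with most) or up to 2 of the highest signals in a gene list. Other chaperone hosts, sphr-1, anc-1, dig-1 and nol-56 were named after their values were seen. The members and lists were chosen with earlier results of these data known. Alternatives were the promoter window, the placing point, peak strength, the overlap rule, window size, the transcript, short RNA genes and leaving out each replicate.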

Additional observations from a re-analysis of the deposited data

How the results depend on the processing

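No paired analysis was possible because the replicates form 1 group and no test compared groups. Over the alternatives, 55 recomputed values stayed within the limits set, 12 moved and 0 reversed. For counts the limit was a ratio of 1.5. A window of 2000 bp upstream, with 1077 coding exon peaks, thus counted as unmoved, as did the 1550 without replicate 1. Counts, shares and the median signal cannot change sign, so only the G+C difference could have reversed. The absence of reversals therefore says nothing about the other results. The share of autosomal peaks in coding exons, 12.8%, was 13.9% with a window of 500 bp upstream, 10.1% with 2000 bp, 9.78% among the stronger 50% of peaks and 13.6% without peaks holding a repeated 30-mer. Leaving out a replicate gave 13.1 to 14.4%. Among the stronger 50%, the median signal was 12.2 and support in both replicate lists was 60.2%. That support was 33.6% when 50% of the peak had to be covered and 20.2% when the replicate summit had to lie within 100 bp, against 42.4% and 27.1% of other autosomal peaks. The difference in G+C between summit and flanks was 3.23 points with wider windows, and 3.47 to 3.96 without a replicate. Without summits near short RNA genes, 1 thresholded coding exon peak remained. Leaving out a replicate gave 1383 to 1550 coding exon peaks, 1210 to 1364 host genes and 16.6 to 18.97% in last exons. The cause of these differences was not tested. Removing peaks that overlap a stronger one, and those with a repeated 30-mer, were alternatives chosen after seeing the data. With unknown depth, the intervals cover the counting of peaks only.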
